A study of Mus musculus with 48 samples.

Results

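The cells described here are tumor macrophages that carried transcripts of Mki67 and Top2a, from mouse GL261 gliomas grown with or without a knockdown of P-selectin. Each member had 500 or more genes detected, at least 5 unique molecular identifiers (UMIs, each standing for 1 captured transcript) of Lyz2 and at least 2 of Ms4a7, Ccr2 and F13a1 together. It was then selected on 2 or more UMIs of Mki67 and Top2a together, with P2ry12, Tmem119, Cd3e, Cd3d, Cd3g and Flt3 at 0. The members numbered 444 of 14896 cells in all, and 3486 cells passed the same macrophage gate whatever their Mki67 and Top2a. The 2499 gated macrophages with no UMI of either gene, called Mki67/Top2a-negative macrophages, were set beside them.

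Macrophages in a brain tumor come largely from blood monocytes, which lose monocyte genes such as Ly6c2 and Ccr2 as they mature, while resident microglia keep genes such as P2ry12 and Tmem119. Some macrophages also divide in the tissue, and a dividing cell turns on genes for DNA replication in S phase and then genes for the mitotic spindle and chromosome condensation in G2 and mitosis. Mki67 encodes a protein that coats mitotic chromosomes and Top2a the enzyme that untangles replicated DNA, so that transcripts of both are widely read as marks of division.

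GL261 is a mouse glioma line, whose cells were implanted into the brains of male C57BL/6 mice aged 6 weeks. The implanted cells expressed either a hairpin RNA that targets Selp, which encodes P-selectin (shSELP), or a hairpin without a target (shNC). P-selectin is an adhesion molecule that binds PSGL-1, the product of Selplg, on leukocytes. In the mix experiment, at day 16 by the labels, CD11b+ cells, other CD45+ cells and tumor cells were recombined in equal amounts and sequenced as 2 shNC and 2 shSELP libraries. In the CD11b+ experiment, at day 21 by the labels, CD11b+ cells alone were sequenced as 1 library per group. The hairpin was in the tumor cells only, so that the macrophages of all groups were those of the unmodified host. Brains were pooled within each group. It is not given in the sources used here if the libraries of 1 group are separate pools of mice, so that p-values measure only the spread between these libraries, which may be technical. In 7 of the 8 entries of the CD11b+ shSELP library a description line names the other group, and the CD11b+ directions rest on the title, source and genotype labels.

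The libraries of the mix held 2289 and 2297 shNC cells and 2293 cells in each shSELP library, with 22945972, 22626413, 17398121 and 25589350 UMIs. The CD11b+ libraries held 2862 cells each, with 12628177 UMIs for shNC and 11445676 for shSELP. Members numbered 67 and 62 in the shNC libraries of the mix, 55 and 82 in its shSELP libraries, and 54 and 124 in the CD11b+ shNC and shSELP libraries. They were deeper than the Mki67/Top2a-negative macrophages of their library, with medians of 14428, 15482, 12354 and 19187 UMIs per member in the mix against 8354, 8326, 7378 and 12348. In CD11b+ cells the medians were 7452 and 5804 UMIs against 4167 and 3706. Barcodes shared between libraries numbered 5 in the mix, 3 in CD11b+ cells and 12 between the experiments, and 1 member carried such a barcode.

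Selp itself, the targeted gene, gave 17 and 25 UMIs over all shNC cells and 21 and 21 over all shSELP cells of the mix, which is 0.741, 1.11, 1.21 and 0.821 UMIs per 1000000 UMIs (CPM). The CD11b+ libraries held 4 UMIs each. The groups overlapped, and with so few UMIs, from all cells and not from tumor cells alone, Selp could not serve as a check of the labels. Members held 0, 0, 1 and 0 Selp UMIs in the mix and none in CD11b+ cells, and at this depth a cell without a Selp UMI cannot be read as a cell without the transcript. Selplg, which encodes the P-selectin receptor PSGL-1, stood at 133 and 128 CPM in shNC and 130 and 105 CPM in shSELP members of the mix, and the groups overlapped (log2 fold change -0.12 ± 0.17 SE, adjusted p = 0.886, edgeR quasi-likelihood test). In CD11b+ members Selplg was at 122 CPM in shNC and 74.3 CPM in the library labelled shSELP (51 and 54 UMIs), a ratio of 0.608 (interval for counting error 0.407 to 0.910), and in the Mki67/Top2a-negative cells of those libraries the ratio was 0.697.

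The working name of these cells, proliferating tumor macrophages, was checked against genes that the selection did not use. The macrophage side of the name was met by most members, as far as C1q genes and Apoe can show it. Microglia were not set beside the members for these genes. The genes therefore do not tell tumor macrophages from microglia without P2ry12 and Tmem119 UMIs. C1qa, a complement subunit made by tissue macrophages, reached 6449, 4470, 5660 and 4851 CPM in the members of the mix and 8232 and 6221 CPM in CD11b+ members. Only 18 of 266 and 2 of 178 members had no UMI of C1qa, C1qb or C1qc. Apoe, a lipid carrier of tissue macrophages, was at 24596, 18795, 32019 and 30582 CPM in the mix and 22139 and 28411 CPM in CD11b+ cells.

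Markers of other cell types were present at different levels. The 10 microglia markers summed to 960, 905, 611 and 966 UMIs in the members of the mix, with P2ry12 and Tmem119 at 0 by the selection. The 6 endothelial markers summed to 86, 167, 43 and 194 UMIs, with Pecam1, Flt1, Pecam1 and Pecam1 on top. The list of 10 tumor cell markers summed to 36, 32, 13 and 35 UMIs in the members of the 4 mix libraries, with Sox11 at 0 in each and H19, Ptn, Ptprz1 and Prph the most abundant in turn. The 10 T cell markers summed to 8, 20, 5 and 7 UMIs, with Trbc2, Cd8a, Trac and Trac on top and with Cd3e, Cd3d and Cd3g held at 0 by the selection. The 6 neutrophil markers summed to 67, 2477, 45 and 185 UMIs, with Retnlg and Cxcr2 at 0 in each library. The value of 2477 came almost wholly from 1 cell of the second shNC library, which held 1259 UMIs of S100a8, 1155 of S100a9, 495 of Camp and 266 of Ngp among 12083 UMIs, and none of the C1q genes or Ms4a7. That cell passed the gate through 3 UMIs of Ccr2 and 1 of F13a1, receptors and enzymes that monocytes carry, and 2 of Mki67. Of the 266 members of the mix 28 held 5 or more UMIs of another cell type's markers, and 17 held 2 or more UMIs of tumor cell markers, while no CD11b+ member did either.

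The proliferating side of the name was not met by most members of the mix. The share of a cell's UMIs that came from 92 other S and G2/M genes had a median of 0.144% and 0.148% in the shNC members and 0.132% and 0.120% in the shSELP members. The Mki67/Top2a-negative macrophages of the same libraries had medians of 0.124%, 0.135%, 0.138% and 0.124%, so that the members' medians were slightly higher in the shNC libraries and slightly lower in the shSELP libraries. All 4 lay well inside the range of cells with no Mki67 or Top2a, whose 95th percentiles were 0.2502%, 0.2433%, 0.2361% and 0.2234%. In CD11b+ cells the medians were 0.447% and 0.169% in members against 0.101% and 0.107%. Because the cell cycle genes go against the name in the mix, the cells are called Mki67/Top2a macrophages from here on.

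The wider program was carried by a minority of members in each library but CD11b+ shNC. Members with 0.3% or more of their UMIs from the 92 genes, a threshold set after seeing the data, numbered 19 of 67 (28.4%, exact 95% interval 18.0 to 40.7%) and 11 of 62 (17.7%, 9.20 to 29.5%) in the shNC libraries of the mix. In its shSELP libraries they numbered 0 of 55 (0 to 6.49%) and 3 of 82 (3.66%, 0.761 to 10.3%). In CD11b+ cells they were 32 of 54 (59.3%, 45.0 to 72.4%) in shNC and 42 of 124 (33.9%, 25.6 to 42.9%) in shSELP. Mki67/Top2a-negative macrophages reached the threshold in 22 of 952 cells of the mix and 32 of 1547 CD11b+ cells. Few members lay near it, with 9 in the mix and 11 in CD11b+ cells between 0.25 and 0.35%. The intervals cover counting error only.

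**Figure D1:**
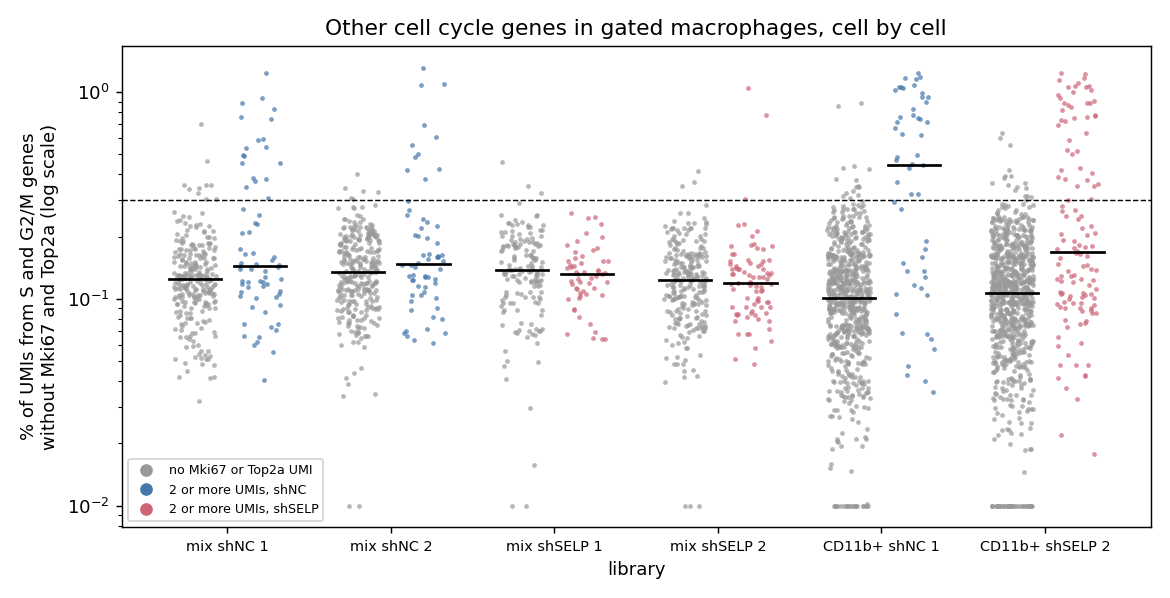
Share of each cell's UMIs from 92 S and G2/M genes other than Mki67 and Top2a (log scale; values under 0.01% drawn at 0.01%) in macrophages with no Mki67 or Top2a UMI (grey) and in macrophages with 2 or more (blue shNC, red shSELP), 1 point per cell, black bars medians, dashed line 0.3%. In the mix 30 shNC and 3 shSELP members lie on or above the line, and in CD11b+ cells 32 and 42 do.

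The transcripts that chose a member went with the program to different degrees. In the mix 148 members qualified on Mki67 alone, of which 8 were above the program threshold. Members with UMIs of both genes numbered 94, of which 23 were above it, and 24 qualified on Top2a alone, with 2 above it. In CD11b+ cells 55 of the 71 members with both transcripts, 15 of 95 with Mki67 alone and 4 of 12 with Top2a alone were above it. Cells just inside and just outside the selection had similar medians in the mix but differed in how many held the program. The median share of the 92 genes was 0.139, 0.136, 0.129 and 0.121% per library in the 271 cells with 1 UMI and 0.145, 0.151, 0.132 and 0.132% in the 110 cells with 2. Above the threshold were 9 of those 110 cells (8.18%) and 5 of those 271 (1.85%), and 10 of the 11 cells with 10 or more UMIs. In CD11b+ cells 9 of 75 cells with 2 UMIs, 21 of 272 with 1 and 17 of 17 with 10 or more were above it.

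Members made up 17.1% and 14.2% of the gated macrophages in the shNC libraries of the mix (exact 95% intervals 13.53 to 21.24% and 11.03 to 17.78%) and 22.1% and 19.95% in the shSELP libraries (17.09 to 27.76% and 16.19 to 24.15%). Both shSELP libraries were above both shNC libraries, with a mean difference of 5.37 percentage points and a p of 0.333 in an exact two-sided permutation test, the smallest that 2 against 2 libraries can give. This order did not hold at equal depth: after each cell was thinned to 5000 UMIs and gated anew the share was 8.50% and 6.75% in shNC and 7.72% and 6.13% in shSELP, a difference of -0.70 points (exact permutation p = 0.667), with the 2995 of 9172 cells under 5000 UMIs left out. The shallower cells were 646, 719, 982 and 648 per library, of which 49, 23, 30 and 19 had passed the macrophage gate. Among neutrophils of the mix, which do not divide, 1 of 23 cells had 2 or more Mki67 and Top2a UMIs, at a median of 2645 UMIs per cell. In CD11b+ cells members were 6.27% of gated macrophages in shNC (4.75 to 8.10%) and 10.9% in shSELP (9.16 to 12.9%), with 1 library per group and no test. Thinned to 5000 UMIs these were 8.91% and 19.8%, after 516 and 811 shallower gated macrophages were left out.

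Counted by the wider program instead of by the 2 marker genes, the order in the mix turned around. Gated macrophages with 0.3% or more of their UMIs from the 92 genes, whatever their Mki67 and Top2a, were 8.18% and 4.34% in shNC (exact intervals 5.67 to 11.4% and 2.63 to 6.69%) and 1.20% and 1.46% in shSELP (0.249 to 3.48% and 0.538 to 3.15%). Pooled, they were 51 of 829 cells in shNC (6.15%, 4.62 to 8.01%) and 9 of 660 in shSELP (1.36%, 0.625 to 2.57%), and each shSELP library had a smaller share than either shNC library. Thinned to 5000 UMIs the order was the same, with 9.17% and 6.10% in shNC and 4.04% and 1.42% in shSELP. The threshold was set after seeing the data, so the difference was not tested. In CD11b+ cells the shares were 6.27% (54 of 861) in shNC and 6.43% (73 of 1136) in shSELP, with intervals of 4.75 to 8.10% and 5.07 to 8.01% that overlap. Thinned to 5000 UMIs, which leaves out the shallower cells, the CD11b+ shares were 11.5% (45 of 393, 8.476 to 15.02%) and 16.5% (56 of 339, 12.73 to 20.91%). At a cut of 0.4% they were 4.53% in shNC and 4.14% in shSELP. Shares in the mix are shares of a recombined suspension and not of the tumor.

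**Figure D2:**
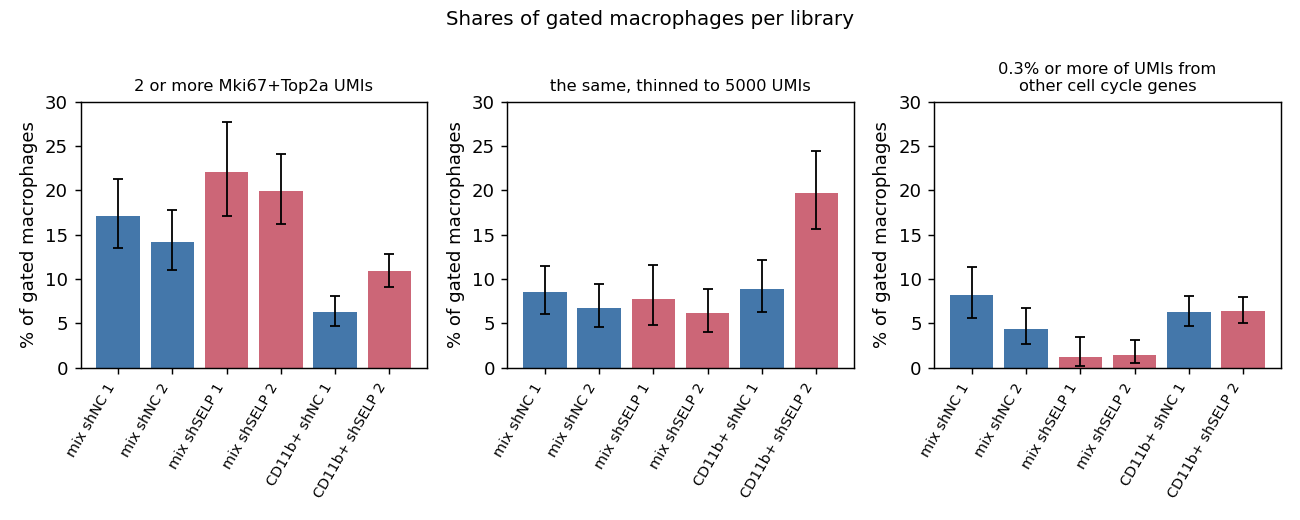
Percent of gated macrophages per library (blue shNC, red shSELP; bars start at 0, error bars exact 95% intervals for counting error) with 2 or more Mki67 and Top2a UMIs, with the same after thinning each cell to 5000 UMIs, and with 0.3% or more of their UMIs from other cell cycle genes. In the mix the first share is higher in shSELP (22.1% and 19.95% against 17.1% and 14.2%), and the last is lower (1.20% and 1.46% against 8.18% and 4.34%).

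Within the Mki67/Top2a macrophages of the mix, knockdown tumors were compared with control tumors over the 4 libraries. The members' median share of mitochondrial UMIs, a sign of cell quality, also separated the groups, at 2.995% and 2.156% in shNC and 1.679% and 1.842% in shSELP, and its part in the calls was not tested. Markers of some other cell types did so too, at 37.1 and 33.0 CPM in shNC and 18.4 and 21.6 CPM in shSELP for tumor cells, 989 and 933 against 866 and 595 CPM for microglia, 25.8 and 38.1 against 11.3 and 9.24 CPM for B cells and 8.24 and 20.6 against 7.08 and 4.31 CPM for T cells. Their part in the calls was not tested either. The genes called lower in the members of shSELP tumors held 12 of 77 tested genes of the cell cycle lists (11 of 75 without Mki67 and Top2a). The secreted factors Spp1, Tnf, Ccl4 and Il12b were called lower too, and the genes called higher included Ly6i, Clec4d, Klf4 and Ier3. Of 6669 genes tested 7 (0.105%) rose and 24 (0.36%) fell (23 without the selecting gene Top2a) at an adjusted p under 0.05 (edgeR quasi-likelihood test, Benjamini-Hochberg, two-sided), and 699 had an unadjusted p under 0.05. DESeq2 called 20 genes, of which 14 were among these 31. The count leaned on single libraries and was 69 without shNC 1, 115 without shNC 2, 163 without shSELP 1 and 191 without shSELP 2. After thinning to 5000 UMIs it was 5 of 3703 genes, and among members with 4 or more Mki67 and Top2a UMIs 9 of 4408, each with 4 of the 31.

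Genes of DNA replication and of microtubule control were among those that fell. Pclaf, which binds the DNA clamp PCNA during replication, stood at 80.3 and 83.5 CPM in shNC and 2.83 and 22.2 CPM in shSELP members, a log2 fold change of -2.33 ± 0.41 (SE; adjusted p = 0.0372, edgeR). Stmn1, which destabilises microtubules and is switched off by phosphorylation in mitosis, stood at 167 and 165 CPM against 19.8 and 63.5 CPM (-1.76 ± 0.31). Mcm3, a subunit of the helicase that opens DNA for replication, was at 65.9 and 52.6 CPM against 24.1 and 17.9 CPM (-1.51 ± 0.27). For all 3 genes each shSELP value was under each shNC value, without overlap. Without shNC 1 the call of Mcm3 was lost (-1.32).

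Of 34 tested G2/M genes 7 were called lower, or 6 of 32 without the selecting genes, against 24 (0.36%) of all 6669 genes. Birc5, the survivin subunit of the complex that corrects chromosome attachment, stood at 57.7 and 45.4 CPM in shNC and 2.83 and 14.2 CPM in shSELP members (-2.24 ± 0.40, adjusted p = 0.0372, edgeR). Hmgb2, a chromatin protein abundant in dividing cells, was at 547 and 559 CPM against 246.5 and 277 CPM (-1.03 ± 0.16). Top2a, one of the genes that chose the cells, stood at 102 and 101 CPM against 39.7 and 47.5 CPM, and Mki67 at 213 and 200 against 211 and 144 CPM. The selection fixed the sum of these last genes from below in every cell, so their values are not independent of it, and calls that hold Top2a are also counted without it.

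By list, 2 of 25 tested genes of the S phase list fell (Mcm5, Uhrf1), 7 of 34 of the G2/M list (Hmgb2, Birc5, Tpx2, Top2a, Cenpf, Cdca3, Cenpe, or 6 of 32 without the selecting genes), 2 of 9 replication licensing genes (Mcm3, Mcm5), 1 of 9 nucleotide synthesis genes (Dut, which clears dUTP) and 2 of 9 histone and chromatin genes (Hist1h1b, Hmgb2), and none rose. Together these lists held 128 genes, of which 77 were tested, 12 fell and 76 had a value below 0, with a median log2 fold change of -1.11 against -0.01 over all genes tested. Without Mki67 and Top2a, 75 were tested, 11 fell and 74 had a value below 0. Over all genes tested 24 of 6669 (0.36%) fell. Without Mki67 and Top2a 23 of all 6667 fell, and 3383 had a value below 0. The gene filter asked for a minimum count in 2 libraries, so a scarce gene could be tested through the group where it was high. Hist1h1b, for example, had 48 and 21 UMIs in shNC and 0 and 5 in shSELP members, and Cenpf 27 and 17 against 1 and 5. The direction count and median of these lists thus depend in part on which genes could be tested. A further 4 genes of division outside the lists also fell, namely Pclaf, Stmn1, the spindle midzone protein Prc1 and the CDK-binding phosphatase Cdkn3. Without shNC 1 the calls of Mcm3 (-1.32), Mcm5 (-2.02), Uhrf1 (-2.98), Cenpf (-2.67), Cdca3 (-2.04), Cdkn3 (-2.55) and Hist1h1b (-3.24) were lost, and without shNC 2 that of Cenpe (-2.39), all still below 0. Genes that start or brake the cycle did not pass the test: 0 of 9 cell cycle entry genes and 0 of 3 CDK inhibitors were called by edgeR, with 3 and 1 at an unadjusted p under 0.05. Such a p was found for 699 of all 6669 genes tested. Ccnd1, the D-type cyclin of cycle entry, was at 108 and 187 CPM against 52.4 and 97.4 CPM. Cdkn1a, the inhibitor p21, was at 921 and 1229 against 1031 and 1230 CPM and overlapped.

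Much of the UMIs of these genes lay in the few members with the wider program, which were picked for such transcripts. The 33 such members of the mix, 30 of them in shNC libraries, held 94.4% of the members' Pclaf UMIs, 79.7% of Stmn1, 88.0% of Birc5, 93.2% of Hist1h1b, 52.8% of Mcm3 and 43.3% of Hmgb2. With these 33 cells left out, an alternative added after seeing the data, edgeR called 1 of 5783 genes, Spp1, and 382 had an unadjusted p under 0.05. Hmgb2 then had a log2 fold change of -0.25 (adjusted p = 0.877) and Stmn1 of -0.53 (adjusted p = 0.831). Leaving out cells picked for cycle transcripts must lower these genes, and Pclaf, Birc5, Hist1h1b, Mcm5 and others were then too scarce to be tested, so that this alternative does not show how cycle genes respond in the remaining members.

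A fall was also called for Spp1 in the lipid-associated list. Spp1, or osteopontin, a secreted matrix protein of lipid-associated macrophages, stood at 2149 and 1917 CPM in shNC and 484.5 and 780 CPM in shSELP members, a log2 fold change of -1.63 ± 0.21 (adjusted p = 0.0160, edgeR). It was lower in both shSELP libraries, and without the 33 program cells the value was -1.91 (adjusted p = 0.00241, edgeR). The highest single cell held 14.3% of its UMIs, and 793 of the 1860 in the members of the second shNC library. In Mki67/Top2a-negative macrophages Spp1 was at 1066 and 1089 against 357 and 758 CPM (-0.90 ± 0.25, adjusted p = 0.4004, edgeR), and the difference between the cell groups was -0.68 ± 0.14 (adjusted p = 0.327, edgeR). Spp1 lies at chr5:104435118-104441050 on the plus strand of GRCm38.

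Among inflammatory genes Tnf, the cytokine tumor necrosis factor, fell from 334 and 365 CPM to 140 and 190 CPM (-1.01 ± 0.19, adjusted p = 0.0417, edgeR). Ccl4, a chemokine for T cells and monocytes, was at 2257 and 1806 CPM in shNC and 1010 and 1004 CPM in shSELP members (-0.97 ± 0.15, adjusted p = 0.0372, edgeR), a call lost without shNC 1 (-0.78). These were the only 2 of 12 inflammatory genes called, and Il1b, the gene of interleukin 1 beta, was at 8430 and 9994 CPM against 10301 and 10959 CPM without a call. Of the 12 genes 9 had a value above 0, with a median of 0.24. At an unadjusted p under 0.05 (edgeR) 3 were higher and 2 lower, against 328 and 371 of all 6669 genes. Il12b, the p40 chain of interleukins 12 and 23, had 155 and 158 CPM against 38.3 and 49.3 CPM (-1.74 ± 0.19, adjusted p = 0.00719, edgeR), from 34 member cells, and 49.0% of its UMIs lay in the 33 program cells. Without the 33 program cells the values were -0.73 for Tnf (adjusted p = 0.387, edgeR), -0.64 for Ccl4 (adjusted p = 0.596, edgeR) and -0.62 for Il12b (adjusted p = 0.793, edgeR), none of them called. Cd72, an inhibitory receptor, was at 382 and 395 CPM against 214 and 177 CPM (-0.96 ± 0.16), and it also fell in Mki67/Top2a-negative macrophages, from 300 and 224 to 111 and 107 CPM (-1.23 ± 0.16, adjusted p = 0.0215, edgeR). Herpud1, of the endoplasmic reticulum stress response, was at 109 and 103 against 52.4 and 49.3 CPM (-1.02 ± 0.18), a call lost without shNC 1 (-0.96). The scarce Cdo1, an enzyme of cysteine breakdown, also fell, and was not called without shNC 1 (-2.99), shNC 2 (-3.35) or shSELP 2 (-2.55).

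The 7 genes that rose were Ly6i, Clec4d, Klf4, Trem1, Ier3, Nr4a2 and Gdf15. Ly6i, a surface protein of the Ly6 family found on monocytes, stood at 247 and 387 CPM in shNC and 717 and 831 CPM in shSELP members (1.34 ± 0.21, adjusted p = 0.0366, edgeR). Clec4d, a lectin receptor for microbial glycolipids, was at 176 and 193 CPM against 422 and 353 CPM (1.11 ± 0.17). Trem1, a receptor that amplifies inflammatory signals, was at 132 and 121 CPM against 222 and 247 CPM (0.94 ± 0.17). All 3 of these surface proteins were higher in each shSELP library than in each shNC library, and the call of Trem1 was lost without shNC 2 (0.88).

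The other 4 genes that rose were Ier3, Klf4, Nr4a2 and Gdf15. Ier3, induced by stress and growth signals, was at 748 and 706 CPM in shNC and 1165 and 1491 CPM in shSELP members (0.92 ± 0.16, adjusted p = 0.0372, edgeR). Klf4, a transcription factor of monocyte differentiation, was at 144 and 173 CPM against 281 and 329 CPM (0.99 ± 0.18). Nr4a2, an orphan nuclear receptor of the immediate-early kind, was at 134 and 133 CPM against 242 and 237 CPM (0.89 ± 0.16). In these 3 genes too the libraries of the groups did not overlap, but Klf4 (0.89) and Nr4a2 (0.91) were not called without shNC 1, nor Nr4a2 without shNC 2 (0.87). Gdf15, a stress-induced cytokine, was at 14.4 and 18.6 CPM against 60.9 and 51.2 CPM (1.78 ± 0.27), and 39.9% of its 158 UMIs came from 1 cell of the second shSELP library. That cell held 63 of the 83 UMIs of its library, so the level there rests largely on 1 cell.

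Other lists held few calls or none. The growth factor receptor and self-renewal list had 1 of 14 tested genes called, Klf4 (lost without shNC 1, at 0.89), and Csf1r, the receptor for the macrophage growth factor M-CSF, was at 406 and 382 against 509 and 516 CPM (adjusted p = 0.337, edgeR). The lipid-associated list had 1 of 12 called, Spp1, and a median of -0.39. No gene was called by edgeR among 14 macrophage identity, 9 monocyte, 8 MHC class II, 14 interferon-induced, 9 chemokine and 4 P-selectin axis genes tested, of which 3, 5, 1, 6, 5 and 1 had an unadjusted p under 0.05. Over all genes tested 699 of 6669 had such a p. The medians of these lists were 0.11, 0.05, 0.13, -0.59, -0.58 and -0.01. Of 10 genes picked earlier for their change in all macrophages of these same libraries, 4 were called, which is not independent evidence of their direction.

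**Figure D3:**
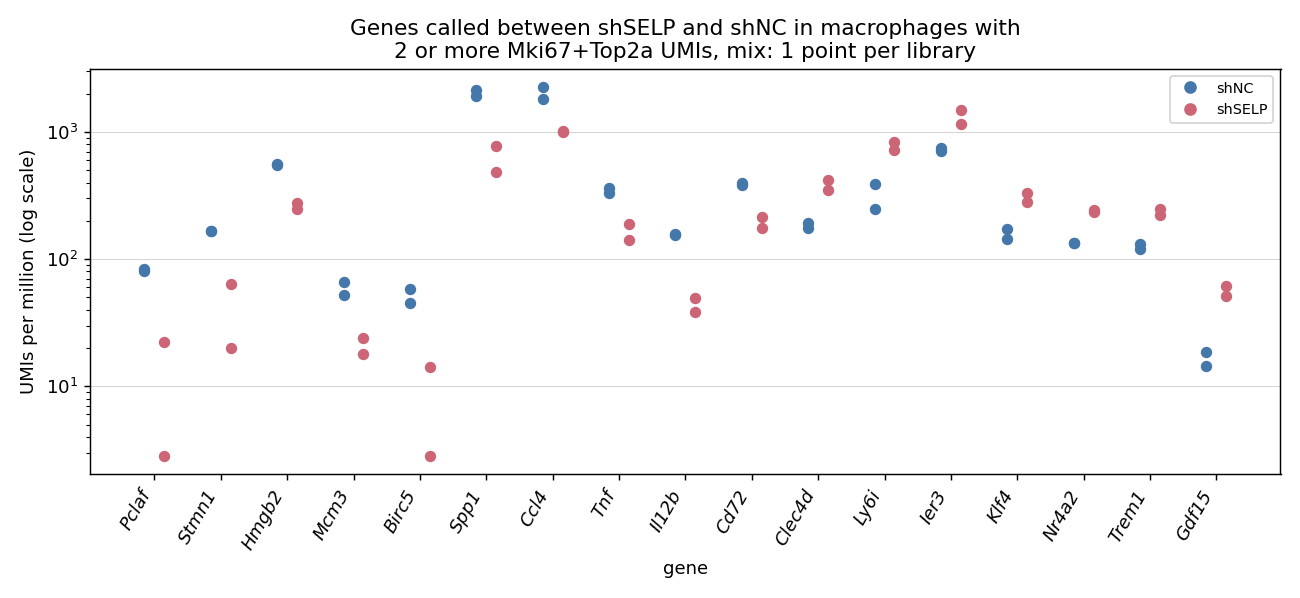
CPM (log scale) of 17 of the 31 genes called between shSELP (red) and shNC (blue) in Mki67/Top2a macrophages of the mix, 1 point per library. In each gene shown both shSELP libraries lie on 1 side of both shNC libraries; Spp1, for example, is at 2149 and 1917 CPM in shNC and 484.5 and 780 CPM in shSELP.

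Both shSELP libraries lay above both shNC libraries in 16.5% of all genes tested and below them in 24.3%, so separation alone marks no gene. With the 28 members that held 5 or more UMIs of another cell type's markers left out, edgeR called 1 gene, Prc1, and 587 of 6351 had an unadjusted p under 0.05; the part of those cells in the calls was not tested.

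The Mki67/Top2a-negative macrophages of the same libraries showed a smaller set of calls. Of 8581 genes tested 5 (0.0583%) rose and 2 (0.0233%) fell in shSELP, and 624 had an unadjusted p under 0.05 (edgeR; DESeq2 called 10, including these 7). Those that rose were Ly6i (1.04 ± 0.11), Ccl5 (1.04 ± 0.14), a chemokine for T cells, Cfb (1.04 ± 0.13), complement factor B, Ier3 (0.68 ± 0.10) and the scarce Gm20594 (1.32 ± 0.18). Cd72 and Itgax (-1.06 ± 0.15), the integrin CD11c, fell. In Mki67/Top2a macrophages Ccl5 was at 2723 and 1939 against 3557 and 4072 CPM (0.75 ± 0.17, adjusted p = 0.0977, edgeR) and Itgax at 181 and 190 against 96.3 and 109 CPM (-0.79 ± 0.17, adjusted p = 0.0750, edgeR). Ly6i, Ier3 and Cd72 were thus called in both cell groups, 3 of 31 and of 7 calls. This overlap depends on the threshold and does not measure a difference in response. Of the other genes that rose in members, Nr4a2 was at 0.94 ± 0.15 in the Mki67/Top2a-negative cells (adjusted p = 0.0504, edgeR). Klf4 (0.66), Clec4d (0.64) and Trem1 (0.49) were also above 0 there and Gdf15 (-1.03) below it, none of them called. Rgs1, Ccl9, Ccl12 and Acp5 had the smallest p-values among further genes of 100 CPM or more that were lower, with log2 values of -0.98, -0.83, -0.91 and -0.59, and were not called. The 7 calls became 47 without shNC 1, 22 without shNC 2, 62 without shSELP 1 and 132 without shSELP 2, and Ier3 was not among them without shNC 2 (0.73). Without cells holding 2 or more tumor marker UMIs the count was 2, of which 1 was among the 7. Tumor cell markers separated the groups in these cells too, at 83.3 and 44.6 CPM in shNC and 19.3 and 28.9 CPM in shSELP. Their part in the calls was not tested.

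Whether the response to the knockdown differed between the cell groups was tested with an interaction term over 8091 genes. It called 1 gene (0.0124%) with a more positive response in Mki67/Top2a macrophages, Gdf15, and 3 (0.0371%) with a more negative one, S100a9, Cxcl13 and Ccl7, and 471 genes had an unadjusted p under 0.05. For S100a9 and Cxcl13 the call rests on 1 cell each. Of the members' 1162 S100a9 UMIs 1155 were in the neutrophil-marked cell of the second shNC library, and without that library the difference turned from -11.76 to 2.45. Of 133 Cxcl13 UMIs 131 were in 1 cell of the first shNC library, without which the difference was -1.42 in place of -10.99 and not called, and without the first shSELP library neither gene was called (-9.23 and -4.87). Gdf15 differed by 2.76 ± 0.33 (adjusted p = 0.00504, edgeR), and its call was lost after thinning to 5000 UMIs (1.61) and without cells holding 5 or more UMIs of another cell type's markers (1.54). In the second shSELP library 63 of its 83 member UMIs were in 1 cell, and without that library the difference was 2.97. The 4 calls became 8 without shNC 1, 15 without shNC 2, 8 without shSELP 1 and 19 without shSELP 2.

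Ccl7, a chemokine that draws monocytes through Ccr2, was the broader case, with UMIs in 134 member cells and at most 6.19% of them in 1 cell. It stood at 777 and 1158 CPM in shNC and 578 and 413.5 CPM in shSELP members, while the Mki67/Top2a-negative cells had 435 and 728 against 606 and 514 CPM. The members' shSELP libraries were below their shNC libraries and the other cells overlapped, and the difference in response was -0.93 ± 0.13 (adjusted p = 0.0215, edgeR). The call was lost without shNC 1 (-0.85) or without shSELP 2 (-0.80), after thinning to 5000 UMIs (-0.74) and when the 33 program cells were left out (-0.68).

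Other genes were nearest to a call without passing it. The interferon-stimulated ubiquitin-like protein Isg15 was at 678 and 786 CPM in shNC and 380 and 521 CPM in shSELP members, with a difference in response of -0.89 ± 0.16 (adjusted p = 0.132, edgeR). The response differed by -0.95 ± 0.17 for Hmgb2, -1.28 ± 0.27 for Gpnmb, a glycoprotein of lipid-loaded macrophages, and -1.28 ± 0.28 for the interferon-induced Ifit3. In the other direction Il1r2, the decoy receptor for interleukin 1, differed by 1.31 ± 0.24, the metalloprotease Adam8 by 0.92 ± 0.21, and Mxi1, Pold4 and Ptpre by 0.68, 0.67 and 0.64. None of these passed an adjusted p of 0.05, so a response particular to Mki67/Top2a macrophages was not shown for them.

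Set against the Mki67/Top2a-negative macrophages of their own library, the members had fewer monocyte transcripts. The selection used this contrast, so the values are a description without a test. Of 4625 genes with 20 or more CPM on average 6 (0.13%) were at least 1.5-fold higher in all 4 libraries of the mix, namely the selecting genes Mki67 and Top2a and the 4 genes Pclaf, Ccdc34, Eid3 and Cxcl1, and 17 (0.368%) at least 1.5-fold lower. Chil3, a chitinase-like protein of monocytes, was at 0.128, 0.241, 0.141 and 0.541 of the level in the other cells. Ccr2, the chemokine receptor that brings monocytes into tissue, which helped choose both cell groups, was at 0.424, 0.407, 0.310 and 0.596. Plac8, expressed in monocytes, was at 0.377, 0.344, 0.197 and 0.431. All 10 measured genes of the monocyte list had a median ratio below 1, with 7 past the fold and a median log2 ratio of -1.37 against 0.01 over all genes.

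Calcium-binding S100 proteins of the monocyte state followed, with median ratios over the mix of 0.198 for S100a4 and 0.321 for S100a6. Slpi, a protease inhibitor, was at 0.482, Lsp1, a leukocyte actin-binding protein, at 0.547, Ms4a4c at 0.598, the interferon-induced Rtp4 at 0.608 and the signalling adaptor Traf1 at 0.641. Cxcl1, a neutrophil chemokine, had a median ratio of 2.00, from 1.55, 2.23, 3.77 and 1.78. In CD11b+ cells Chil3, Ccr2 and Plac8 had ratios of 0.132, 0.337 and 0.190 in shNC and 0.263, 0.265 and 0.308 in shSELP, again below 1. Members were deeper cells than those they are set beside, and thinned to 5000 UMIs 12 genes were higher and 27 lower.

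The members with the wider program could be described in the 4 libraries that held at least 10 of them, both mix shNC and both CD11b+ libraries. These cells were chosen on cell cycle content, so the cycle values are no finding. In the mix 4 of the 33 held 5 or more UMIs of another cell type's markers, all 4 among the 11 of the second shNC library. A further count found 2 or more tumor marker UMIs in 6 of the 33. Of the members' 1162 S100a9 UMIs 1158 lay in program members, so the neutrophil-marked cell was one of them. Pclaf was at 57.5, 90.7, 81.0 and 95.3 times the level of Mki67/Top2a-negative cells, and Stmn1 at 23.0, 29.8, 22.2 and 35.6 times. Members outside the program had Pclaf at 0 and 5.37 CPM in the mix shNC libraries and 0 in both CD11b+ libraries, at or near the 4.01, 3.77, 3.17 and 2.46 CPM of cells with no Mki67 or Top2a. G2/M transcripts outnumbered S transcripts in the program members, 2782 to 1247 UMIs in the mix and 3169 to 1376 in CD11b+ cells. Mki67/Top2a-negative cells also held more G2/M than S UMIs, 8582 to 4351 in the mix and 4725 to 2727 in CD11b+ cells, and the lists hold 52 and 42 measured genes. Single program cells leaned either way, with 11 of 33 and 22 of 74 holding more S than G2/M UMIs.

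Program members also had fewer transcripts of several monocyte genes than Mki67/Top2a-negative cells. Ly6c2, the surface marker of inflammatory monocytes, was at 29.5, 120, 20.8 and 53.5 CPM in program members, against 587, 1101, 367 and 392 CPM in Mki67/Top2a-negative cells. Members outside the program stood between or near the latter, at 280, 1020, 179 and 201 CPM. Ccr2 did not set the members apart in this way, at 76.8, 57.7, 45.1 and 46.9 CPM in program members and 98.0, 63.1, 46.6 and 35.1 CPM in the others. Thbs1, a secreted matrix glycoprotein, had ratios of 0.208, 0.138, 0.149 and 0.174, and Fn1, fibronectin, 0.373, 0.447, 0.384 and 0.315. F13a1, a transglutaminase that helped choose the cells, had 0.460, 0.204, 0.102 and 0.268. All 10 measured monocyte genes had a median ratio below 1, and 7 were past the fold in each library.

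Of 14 measured macrophage identity genes 6 had a median ratio above 1 and 8 below it in the same cells, with a median log2 ratio of -0.11 and none past the fold. C1qa had ratios of 1.40, 1.45, 1.54 and 1.27, and Csf1r 0.803, 0.975, 0.738 and 0.922. H2-Ab1, an MHC class II chain that presents antigen to CD4 T cells, had 0.973, 1.54, 1.37 and 1.19, and all 8 class II genes measured had a median ratio above 1 with a median log2 ratio of 0.31. Of 11 lipid-associated genes 10 had a median ratio below 1, with a median log2 ratio of -0.49. Ly6i and Clec4d, which rose in shSELP, were low in program members, at 0.252, 0.325, 0.392 and 0.309 and at 0.509, 0.413, 0.392 and 0.388 of the other cells. With the program cells left out, the log2 fold changes between shSELP and shNC were 1.06 for Ly6i (adjusted p = 0.103, edgeR) and 0.89 for Clec4d (adjusted p = 0.103, edgeR). Of 5226 genes 307 were at least 1.5-fold higher and 60 at least 1.5-fold lower in all 4 libraries, and no test was made.

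**Figure D4:**
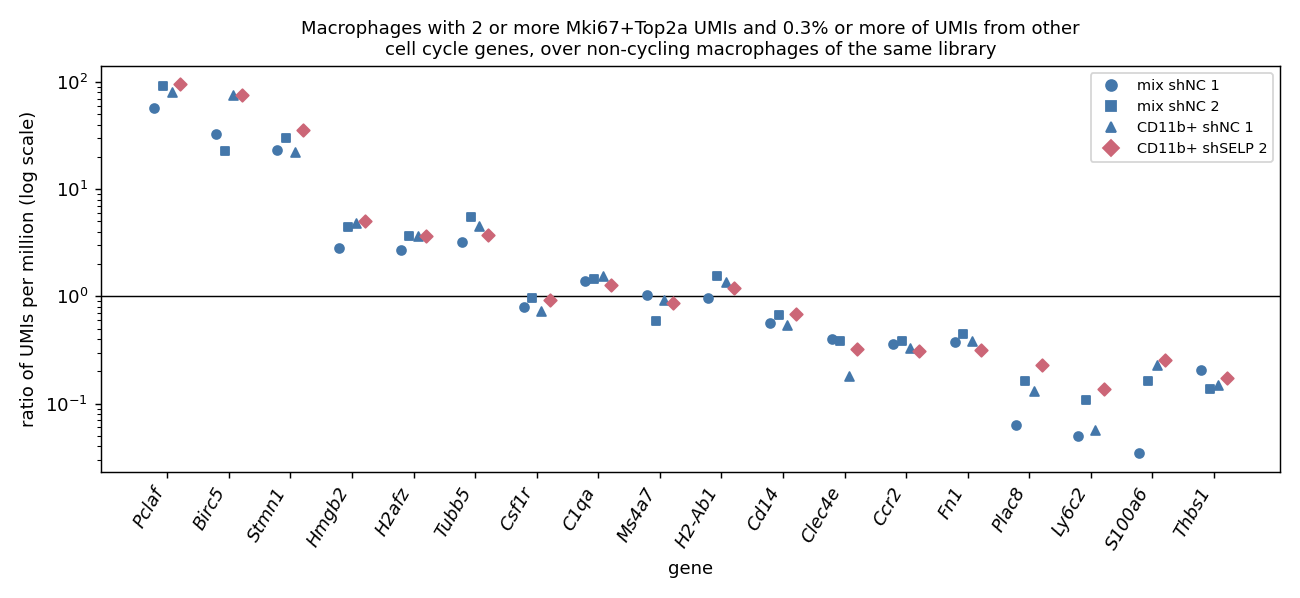
Ratio of CPM (log scale) in members with 0.3% or more of their UMIs from other cell cycle genes to Mki67/Top2a-negative macrophages of the same library, 1 point per library (blue shNC, red shSELP; line at 1). Cycle genes such as Pclaf lie far above 1 (57.5 to 95.3), C1qa near it (1.27 to 1.54) and monocyte genes such as Ly6c2 far below it (0.0503 to 0.137).

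The CD11b+ members, from 1 library per group, give ratios without a test, and their intervals cover counting error only. Of 1506 genes with 100 or more UMIs 117 (7.77%) were at least 1.5-fold higher and 94 (6.24%) at least 1.5-fold lower in the library labelled shSELP. C3, the central complement component, was at 127 CPM in shNC and 409 CPM in shSELP members, a ratio of 3.22 (2.40 to 4.40). Gpnmb was at 95.9 and 304 CPM (3.17, 2.26 to 4.56), and Fabp5, a fatty acid-binding protein, at 645 and 1390 CPM (2.16, 1.88 to 2.48). Dnaja1, a chaperone partner of Hsp70, had a ratio of 2.69 (2.09 to 3.49), and Acod1, the enzyme that makes itaconate, 2.08 (1.66 to 2.64). These 5 had ratios of 2.44, 1.90, 1.33, 2.47 and 1.66 in the Mki67/Top2a-negative cells of the same libraries, so all were above 1 there too.

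Among genes with 200 or more UMIs the 5 ratios furthest below 1 were those of Cebpb, Jun, Atf3, Btg2 and Pfn1. Cebpb, a factor of myeloid differentiation, was at 1081 and 475 CPM (0.439, 0.381 to 0.506), Jun, a subunit of the transcription factor AP-1, at 386 and 180 CPM (0.467, 0.368 to 0.592) and Atf3, a stress-induced repressor, at 578 and 277 CPM (0.479, 0.395 to 0.580). Btg2, which restrains proliferation, had a ratio of 0.481 (0.379 to 0.609) and Pfn1, an actin-binding protein, 0.503 (0.434 to 0.582). In Mki67/Top2a-negative cells the ratios were 0.382 for Cebpb, 0.567 for Jun, 0.475 for Atf3, 0.464 for Btg2 and 0.598 for Pfn1. The same direction held in both cell groups of these libraries.

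Among cycle genes some were lower in the CD11b+ shSELP members and some were not. Birc5 was at 237 and 79.8 CPM (0.336, 0.239 to 0.470) and Hmgb2 at 992.5 and 537 CPM (0.541, 0.470 to 0.623). Of 12 measured G2/M genes 7 were past the fold and all 7 were lower, with a median log2 ratio of -0.90 against -0.04 over all genes. Without Mki67 and Top2a, which the selection used, 10 were measured, 7 were past the fold and lower, and the median was -0.95. The 2 measured S phase genes were both higher, with a median of 0.39. Pclaf was at 177 and 96.4 CPM (0.543, 0.386 to 0.764), lower as in the mix. Mcm3 had a ratio of 1.15 (0.745 to 1.80) and Mcm5 of 0.994 (0.600 to 1.68), so the fall of these last genes in the mix was not seen here. The G2/M values stand beside the smaller share of members with the program, 42 of 124 against 32 of 54. Spp1 was at 1043 and 706 CPM (0.677, 0.595 to 0.771), and Cd72 at 578 and 345.5 CPM (0.598, 0.499 to 0.717), lower as in the mix. Il12b, which fell in the mix, was at 76.7 and 161 CPM here (2.10, 1.41 to 3.21), and Tnf, which also fell there, at 156 and 215 CPM (1.38, 1.03 to 1.87). Fabp5, Gpnmb and Ccl7 (1.83, 1.53 to 2.20) were likewise higher in shSELP here and lower in the mix, where these 3 were not called among members.

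Promoters of the cycle genes were read for 3 patterns of letters known from cell cycle promoters, on either strand of the 250 bases before to 50 after each start in RefSeq (GRCm38.p6). The letters CCAAT are the box bound by NF-Y, the letters TTTGAA the core of the CHR element of late cycle genes, and the letters TTTGGCGC an E2F site, and no pattern contains another. Of 46 matched G2/M genes 76.1% held CCAAT and 71.7% TTTGAA, while of 30 matched S phase genes 70.0% held the first and 6 genes the second, against 41.1% and 20.2% of all 27025 genes. TTTGGCGC was in 16.7% of S phase and 2.17% of G2/M genes, against 0.585% of all. Of the genes that fell in shSELP members 18 of 24 were matched, with 72.2% holding CCAAT, 38.9% TTTGAA and 11.1% TTTGGCGC (70.6%, 35.3% and 11.8% without Top2a), and of the 7 that rose 6 were matched, with 33.3%, 33.3% and 0. A match is a run of letters and not a shown binding site.

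For 4 genes that fell, 100 bases with their matches in capitals are printed as examples picked for holding the most matches, while Birc5 held none in its 100 bases. They show how the patterns can lie in a G2/M chromatin gene (Hmgb2, chr8:57511743-57511842, plus strand), a licensing gene (Mcm5, chr8:75109409-75109508, plus strand), a replication gene (Pclaf, chr9:65890223-65890322, plus strand) and one of the selecting genes (Top2a, chr11:99024190-99024289, minus strand), each 5′ to 3′ from RefSeq on GRCm38.p6. Capitals mark CCAAT or its reverse complement ATTGG, and TTTGAA or its reverse complement TTCAAA.
Hmgb2: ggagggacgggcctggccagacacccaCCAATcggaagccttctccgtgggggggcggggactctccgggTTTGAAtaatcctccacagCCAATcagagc
Mcm5: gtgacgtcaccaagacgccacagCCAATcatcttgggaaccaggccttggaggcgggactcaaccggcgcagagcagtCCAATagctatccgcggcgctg
Pclaf: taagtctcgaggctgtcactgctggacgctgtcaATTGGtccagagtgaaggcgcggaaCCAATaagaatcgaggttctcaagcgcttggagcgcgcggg
Top2a: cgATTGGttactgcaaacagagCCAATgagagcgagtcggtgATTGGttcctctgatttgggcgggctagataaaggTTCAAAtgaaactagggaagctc
Hmgb2 and Top2a held both CCAAT and TTTGAA within these bases, and Mcm5 and Pclaf CCAAT alone.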

How the data were processed

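The authors aligned droplet reads to mm10 with Cell Ranger 1.3 and deposited whole-number counts of UMIs per gene and cell, neither normalized nor scaled, in 1 table per experiment (20300 and 14363 genes). The days given are those of the labels, and the paper's methods give a different day. Deposited cells had at most 5.00% mitochondrial UMIs and at least 263 genes. Coordinates came from GENCODE M21 (GRCm38), in which 19998 and 14194 symbols were found once. The members and gene lists were chosen with earlier results of these data known.

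The tables were analysed separately. Counts were summed per library over members and over Mki67/Top2a-negative macrophages and compared in the mix with edgeR 4.0.16 in R 4.3.3 (filterByExpr, TMM, quasi-likelihood test, Benjamini-Hochberg over all genes tested, threshold 0.05). The interaction model had library as a block. DESeq2 1.42.0 was an alternative. Shares were tested by exact permutation over libraries, with Clopper-Pearson 95% intervals. CD11b+ ratios have conditional binomial intervals. The rest was done in Python 3.11.15 (scanpy 1.11.5, pandas 2.3.3, scipy 1.17.1, numpy 2.4.6, matplotlib 3.10.9). The edgeR steps were tested on simulated counts with the same spread for every gene and planted log2 changes of 2 in either direction. In the comparison of members 175 of 182 planted changes and 3 other genes were called. No change was planted in scarce genes and no gene was carried by single cells, so calls of those kinds were not covered.

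Scrublet, run in scanpy at an expected rate of 0.05, called 73 cells of the mix (0.796%) and 1 CD11b+ cell (0.0175%), and no member. In CD11b+ cells it has not worked, and doublets were kept. Members among the 5% highest scores numbered 15 of 266 and 20 of 178. Every cell column was assigned to a library, with 0 unassigned.

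The size of the change decided which genes are named. For the mix they are the 10 largest changes per direction among called genes of 100 or more CPM whose libraries separated the groups, or, with under 5 called, the 5 smallest p-values. For CD11b+ cells they are the 5 largest ratios per direction among genes of 200 or more UMIs. For members against Mki67/Top2a-negative cells they are the 10 largest called median ratios per direction, at 100 or more CPM. Genes of the lists were measured whatever their value, and some results are not reported here. Il12b, Gdf15, Pclaf, Prc1, Cdkn3, Cdo1, Herpud1, Ccdc34, Eid3, Gm20594, Itgax in Mki67/Top2a-negative cells, Cxcl13 and S100a9 were named after their values were seen, as were the genes shown for program members.

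Depth was 17398121 to 25589350 UMIs per library in the mix and 705839 to 1622642 UMIs over its members, and 417146 and 726448 over CD11b+ members. Alternatives were no filter on low counts, DESeq2, a replicate block, each library left out, at most 10% mitochondrial UMIs, Scrublet calls left out, cells with tumor markers left out, thinning to 5000 UMIs, 1 or 4 UMIs of Mki67 and Top2a, a fold of 2, 50 UMIs and TMM scaling in CD11b+ cells. Leaving out the highest Scrublet scores, cells with markers of other types and cells with the wider program, and the share by program with its 0.3% threshold, were chosen after seeing the data.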

Additional observations from a re-analysis of the deposited data

Results flagged for a closer look

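The response to the knockdown differed between Mki67/Top2a macrophages and Mki67/Top2a-negative macrophages of the mix for 4 genes by the interaction test (edgeR). The log2 differences were -11.76 for S100a9, -10.99 for Cxcl13, 2.76 for Gdf15 and -0.93 for Ccl7. In the members 99.4% of S100a9, 98.5% of Cxcl13 and 39.9% of Gdf15 UMIs were in 1 cell each, in the second shNC, the first shNC and the second shSELP library. For Gdf15 that cell held 63 of the 83 UMIs of its library. The highest cell held 6.19% of Ccl7 UMIs.

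Several genes named in the members moved in opposite directions in the experiments. For Ccl7, Fabp5 and Gpnmb both shSELP libraries of the mix were below both shNC libraries, while the CD11b+ ratio of shSELP to shNC was 1.83 for Ccl7, 2.16 for Fabp5 and 3.17 for Gpnmb. Fabp5 was at 1695 and 1163 CPM in shNC and 660 and 884 CPM in shSELP members of the mix, and Gpnmb at 458 and 676 against 161.5 and 328 CPM. Il12b and Tnf, which fell in the members of the mix, had CD11b+ ratios of 2.10 and 1.38. These directions rest on the labels of the CD11b+ libraries, which 7 of 8 description lines of the shSELP library contradict. With the labels exchanged the ratios would be 0.546 for Ccl7, 0.464 for Fabp5, 0.315 for Gpnmb, 0.476 for Il12b and 0.726 for Tnf, the direction of the mix. Other genes have the direction of the mix as labelled and would turn away from it, with ratios as labelled of 1.502 for Ly6i, 1.70 for Ier3, 2.09 for Nr4a2, 0.598 for Cd72, 0.677 for Spp1, 0.336 for Birc5 and 0.541 for Hmgb2. The paper reports less PSGL-1 transcript in microglia of shSELP tumors. In cultured macrophages it reports less of the protein when a P-selectin inhibitor was added to tumor-conditioned medium. Selplg transcripts were lower in the CD11b+ shSELP members as labelled, while the groups overlapped in members of the mix. The members were selected against P2ry12 and Tmem119, so they are not the same cells. The paper reports genes enriched after the knockdown over all CD11b+ microglia and macrophages. In the 54 and 124 members alone, such genes went both ways as labelled. Ccl5 had a ratio of 1.90 and Tnf of 1.38, but Cxcl9 had 0.980 and all 6 measured MHC class II genes were lower. In the Mki67/Top2a-negative cells of these libraries Ccl5, Tnf and Cxcl9 had ratios of 2.17, 1.41 and 1.23. Cd74 of the class II list was lower there too, at 8075 CPM in shNC and 6946 CPM in shSELP. The differences between experiments were not tested, and the experiments also differ in the sort and, by their labels, in day.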

How the results depend on the processing

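The number of genes called between shSELP and shNC in members, 31, was 252 with no filter on low counts, 20 with DESeq2, 98 without the highest Scrublet scores, 101 without cells with tumor markers, 1 without cells with markers of another type, 5 after thinning, 1 without cells with the wider program and 9 with 4 or more Mki67 and Top2a UMIs. Leaving out each library gave 69 to 191. In Mki67/Top2a-negative macrophages the 7 calls became 146 with no filter, 2 without cells with tumor markers and 11 without cells with markers of another type, and 22 to 132 with each library left out. For the difference in response the 4 calls became 55 with no filter, 9 without cells with tumor markers, 11 after thinning and 8 without cells with the wider program, and 8 to 19 with each library left out. A library left alone in its group was assumed to vary like the other group. The causes were not tested.

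The replicate block, which uses the library numbers of the labels, gave 190 calls in members and 124 in Mki67/Top2a-negative macrophages. The deviations from the group means correlated at 0.00416 between shNC 1 and shSELP 1 over 6669 genes, which gave no sign of a pairing by these numbers. With few cells per library this correlation is noisy and cannot decide if the libraries were paired.

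The share of gated macrophages with 2 or more Mki67 and Top2a UMIs turned from 5.37 to -0.70 percentage points after thinning. The share by wider program kept its direction in every alternative run, from -6.85 to -3.01 points. Of CD11b+ ratios 517 were past the fold at 50 UMIs, 28 at a fold of 2 and 96 after thinning, against 211. For members against Mki67/Top2a-negative cells 7 genes passed a fold of 2 and 39 after thinning, against 23.

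For single genes of the mix 976 values were computed for 69 combinations of gene and comparison, and 681 kept direction and side of the threshold, 157 were no longer called, 136 became called and 2 reversed. These were S100a9 in the difference in response without shNC 2 (2.45, against -16.54 without shNC 1) and Tubb5 in members without cells with the wider program (0.14, from -0.86, neither called). Of 74 values of 21 single ratios 71 moved by less than their interval and 0 reversed. Members of the shallowest library, CD11b+ shNC, held 417146 UMIs, which limits what can be seen of genes under 100 UMIs there.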

Other observations

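Interferon-induced genes, which cells turn on to resist viruses, held no call between shSELP and shNC members of the mix. Over the 14 tested genes the median log2 value was -0.59 in Mki67/Top2a macrophages and 0.10 in Mki67/Top2a-negative macrophages. Of the 14 genes 11 had a value below 0 in the members, 6 had an unadjusted p under 0.05 (edgeR) and 5 had both shSELP libraries below both shNC libraries, where 24.3% of all genes did. Over all genes 3383 of 6667 had a value below 0 (Mki67 and Top2a left out). At an unadjusted p under 0.05 (edgeR) 371 of 6669 were lower. In CD11b+ members 5 of the 11 measured genes were higher and 6 lower in shSELP, with a median log2 ratio of -0.03. Ifit3, an antiviral protein of the IFIT family, was at 58.7 and 150.5 CPM in shNC and 25.5 and 44.4 CPM in shSELP members, below both shNC values, and at 109 and 167 against 113 and 132 CPM in the other cells, where the groups overlapped.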
